A study of Mus musculus with 8 samples.

Results

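The insulin-like growth factor (IGF) axis was followed through 10 genes in livers of Nnmt KO and control mice: the ligands Igf1 and Igf2, the receptors Igf1r and Igf2r, the binding proteins Igfbp1, Igfbp2, Igfbp3 and Igfbp4, the acid-labile subunit Igfals and the growth hormone receptor Ghr. The genes were taken by symbol from the 33212 genes of the count table, and all 10 passed the filter on low counts among the 15291 genes tested. They were chosen by the measured difference itself, because Igf2 and Igfbp1 were higher in the Nnmt KO mice of these data, so the differences between the genotypes in these 10 genes are given as descriptions, with standard errors and no p-values.

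The study removed Nnmt, which encodes the enzyme that methylates nicotinamide, to ask what it does in diet-induced liver damage. Livers of 4 Nnmt KO mice (Alb-Cre::Nnmt flox/flox, labelled Nnmt LKO) and 4 control mice (Nnmt flox/flox by the study's methods, labelled WT) were sequenced, 1 library a mouse. Both groups were male C57BL/6 mice, and both were fed for 8 weeks on a diet lacking methionine and choline (MCD), so no group shows the liver without the diet. The age of these mice is not given in the sources used here. Alb-Cre is driven by the albumin promoter and deletes in hepatocytes, so liver cells in which it is not active keep Nnmt. The letters a to d only name the libraries of a genotype.

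IGF-I is made mainly by hepatocytes under growth hormone, which acts through its receptor, JAK2 and STAT5, and it leaves the liver to act on other tissues. In the blood most of it travels in a complex of IGF-I, IGFBP-3 and the acid-labile subunit, while the smaller binding proteins carry the rest and limit its access to receptors. IGFBP-1 is made in hepatocytes, and insulin holds its gene down by removing FOXO1 from the nucleus. IGF-II is the growth factor of the fetus. In mice its gene is imprinted, lies beside the non-coding RNA gene H19, and is nearly shut off in the liver after weaning. The receptor IGF1R carries the growth signal of both ligands but is scarce on hepatocytes, and IGF2R takes up IGF-II for breakdown in lysosomes.

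The 250 bases before the start of a gene were read from RefSeq (GRCm38.p6) for all 10 genes (17 windows) and searched on both strands for CAAAACA, the core of the insulin response element of Igfbp1, to which FOXO1 is known to bind. A match was found for 1 of the 10 genes, Igfbp1, and for 2 of the 8 FOXO1 target genes described further on, G6pc and Irs2. Counted by window, that was 1 of 17 (5.88%) for the 10 genes, close to the 5.56% of 32851 windows of this length that held one, and 2 of 9 for the FOXO1 targets. The motif comes from the Igfbp1 element itself, so its match in Igfbp1 was not an open outcome and nothing is read from it. The match lies 108 bases before the RefSeq start of Igfbp1, 174 bases before that of G6pc and 37 bases before that of Irs2. These windows are shown with the match in capitals (as TGTTTTG where it is on the other strand), ended at the GENCODE gene start where that came first. One of the 4 Igf2 windows, none of which held a match, is shown beside them because Igf2 differed most.
Igfbp1 (chr11:7197537-7197781, plus strand): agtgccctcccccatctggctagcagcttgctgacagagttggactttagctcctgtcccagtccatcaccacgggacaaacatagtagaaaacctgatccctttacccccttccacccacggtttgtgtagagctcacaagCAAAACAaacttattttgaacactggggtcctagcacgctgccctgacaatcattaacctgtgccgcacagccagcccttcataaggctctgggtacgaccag
G6pc (chr11:101367466-101367560, plus strand): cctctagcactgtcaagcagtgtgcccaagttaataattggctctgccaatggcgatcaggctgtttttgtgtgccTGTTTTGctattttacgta
Irs2 (chr8:11008930-11009179, minus strand): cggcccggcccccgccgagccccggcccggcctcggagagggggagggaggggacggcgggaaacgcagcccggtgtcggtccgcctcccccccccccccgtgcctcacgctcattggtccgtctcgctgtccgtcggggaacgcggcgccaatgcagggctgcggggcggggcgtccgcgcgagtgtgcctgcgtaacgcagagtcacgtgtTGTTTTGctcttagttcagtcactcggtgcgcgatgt
Igf2 (chr7:142657497-142657746, minus strand): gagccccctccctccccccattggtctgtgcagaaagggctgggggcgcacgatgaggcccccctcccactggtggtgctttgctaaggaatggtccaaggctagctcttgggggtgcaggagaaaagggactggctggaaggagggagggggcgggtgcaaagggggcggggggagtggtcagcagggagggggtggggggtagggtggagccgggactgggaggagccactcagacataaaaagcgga
A match is a stretch of letters and not evidence of binding, and gene counts do not show which of its promoters Igf2 was read from. The same windows were also searched for TTCNNNGAA and TGATGNAA (N is any base), held by 7.02% and 3.45% of all windows. Of the 10 genes, Igfals alone held the first and none held the second, which G6pc held.

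Library depth ran from 75020072 to 87934362 counts, so that 3 counts correspond to 0.0341 to 0.04 CPM (counts relative to the library total). Nnmt had 31.8, 44.8, 68.9 and 83.0 CPM in libraries a to d of the Nnmt KO mice, against 112, 224, 134 and 84.9 CPM in those of the control mice. The groups did not overlap, but Nnmt KO library d and control library d were close. The log2 fold change was -1.28 (SE 0.33, edgeR adjusted p = 0.123). Nnmt KO library a stood apart from the other libraries. Its TMM scaling factor was 1.21 against 0.876 to 1.06 in the others, its summed hepatocyte markers (10 of 10 genes tested) were lowest at 67908 CPM against 83102 to 122638 CPM elsewhere, and its summed stellate and fibroblast markers (12 of 12 tested) were 956 CPM against 358 to 612 CPM. Summed macrophage markers ran from 532 to 721 CPM in Nnmt KO and from 359 to 685 CPM in control mice, and bile duct markers from 109 to 308 CPM and from 72.6 to 188 CPM, both highest in that library. Of the pancreas markers 4 of 6 were at 0 in every library, Ins2 among them. In whole liver, fewer cells of a type and less RNA per cell cannot be told apart.

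Igf2 was the member that differed most. The gene (ENSMUSG00000048583) lies on chromosome 7 at 142650766 to 142666816, minus strand, in mm10. It had 800, 457, 515 and 679 counts in the Nnmt KO libraries, and 88, 40, 68 and 70 counts in the control libraries (a to d each). On the CPM scale these were 8.75, 5.66, 6.15 and 9.47 against 1.06, 0.528, 0.783 and 0.833. All 4 Nnmt KO libraries lay above all 4 control libraries, and the lowest Nnmt KO value was 5.33 times the highest control value. The means were 7.51 ± 1.88 (SD, n = 4) and 0.801 ± 0.219 CPM (SD, n = 4), a ratio of 9.37 and a log2 fold change of 3.22 (SE 0.26). Leaving out 1 library at a time moved it between 3.08 and 3.41, and 9 of the 15291 tested genes had a larger log2 fold change. The antisense gene Igf2os, whose reads cannot be told from those of Igf2 if strand was not used, had at most 11 counts in a library.

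Igf1, the main ligand of the adult liver, had 149, 178, 209 and 274 CPM in the Nnmt KO libraries and 126, 181, 155 and 136 CPM in the control libraries. Nnmt KO libraries c and d lay above every control library and a and b did not. The means were 203 ± 53.5 and 150 ± 24.3 CPM (SD, n = 4 each). On the log2 scale the difference was 0.44 (SE 0.19). It ran from 0.26, without Nnmt KO library d, to 0.56, without Nnmt KO library a. Per kilobase of exon, Igf2 stood at 5.1 to 10.1 percent of the Igf1 level in Nnmt KO mice (mean 6.67 ± 2.31, SD, n = 4), and at 0.504 to 1.46 percent in control mice (mean 0.975 ± 0.398, SD, n = 4). On this scale the Igf1 level was above the Igf2 level in every library of both genotypes.

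**Figure D1:**
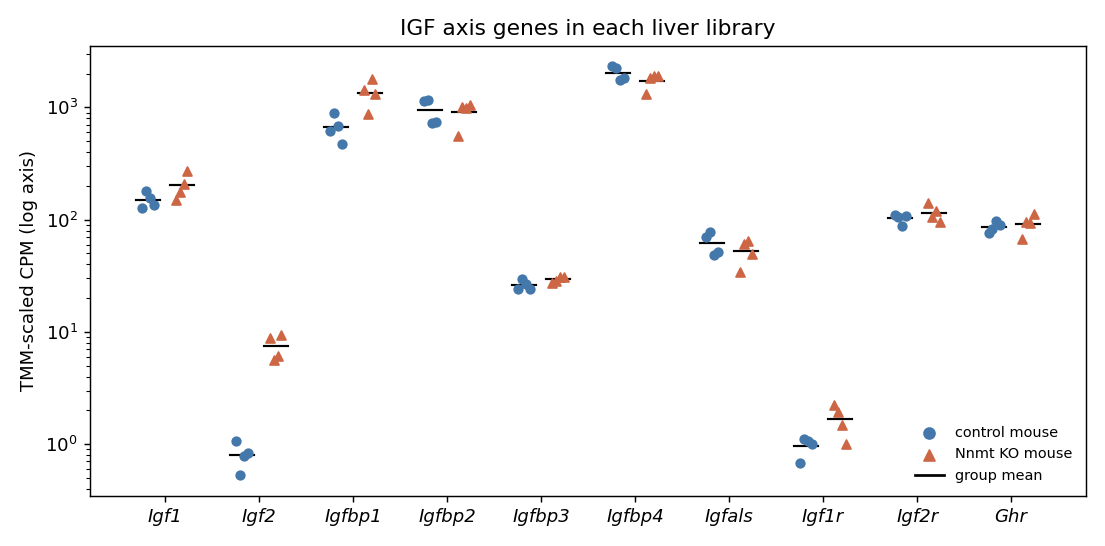
Level of each IGF axis gene in TMM-scaled CPM (log axis), 1 point per mouse, with circles for the 4 control mice, triangles for the 4 Nnmt KO mice and a line at each group mean. The groups are apart for Igf2 (5.66 to 9.47 against 0.528 to 1.06 CPM), and overlap for the other 9 genes.

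Of the receptors, Igf1r, the signalling receptor, was low, with 56 to 205 counts a library. It had 2.24, 1.95, 1.48 and 1.0 CPM in Nnmt KO libraries a to d, against 0.675, 1.10, 1.06 and 0.999 CPM in control libraries a to d. Libraries a, b and c of the Nnmt KO mice were above all control libraries and library d was within their range. The log2 fold change was 0.80 (SE 0.30). Its highest value was in the library with the highest stellate markers, whose part in the difference was not tested. Without that library the log2 fold change was 0.63 (SE 0.31).

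Igf2r, the clearance receptor, had 142, 105, 119 and 95.2 CPM in Nnmt KO mice against 111, 105, 88.5 and 107 CPM in control mice, a log2 fold change of 0.16 (SE 0.14) with overlapping groups, and of 0.05 (SE 0.12) without Nnmt KO library a. Ghr, which receives the growth hormone signal, had 67.7, 94.5, 93.7 and 112 CPM against 76.3, 81.9, 97.1 and 89.4 CPM. Its log2 fold change of 0.09 (SE 0.15) was within 1 standard error of 0, and it ran from -0.02 to 0.22 with 1 library left out. The Nnmt KO mice spread more widely than the control mice in both genes, beyond the control range at both ends for Ghr and at the upper end for Igf2r.

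Igfbp1, the binding protein gene under insulin control, had 1439, 868, 1795 and 1321 CPM in the Nnmt KO libraries and 618, 887, 687 and 470 CPM in the control libraries. Libraries a, c and d of the Nnmt KO mice lay above all control libraries, and library b, at 868, lay just below control library b, at 887. The means were 1356 ± 382 and 666 ± 173 CPM (SD, n = 4 each). These give a ratio of 2.04 and a log2 fold change of 1.03 (SE 0.24). With 1 library left out it ran from 0.86 to 1.21.

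Igfbp3, which forms the large serum complex, lies 3539 bases from Igfbp1 on chromosome 11, tail to tail. It had 27.3, 28.4, 30.9 and 30.9 CPM in Nnmt KO mice and 24.3, 29.5, 26.8 and 24.1 CPM in control mice. The groups overlapped through control library b, and the log2 fold change was 0.17 (SE 0.10). Igfbp3 and its neighbour Igfbp1 both had positive differences, of unequal size.

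Igfbp2 had 557, 1004, 995 and 1061 CPM in Nnmt KO mice and 1141, 1172, 719 and 741 CPM in control mice, a log2 fold change of -0.06 (SE 0.23) that ran from -0.17 to 0.11 with 1 library left out. Igfbp4 had 1328, 1824, 1886 and 1895 CPM against 2321, 2264, 1756 and 1845 CPM, a log2 fold change of -0.24 (SE 0.17). Igfals, which holds the serum complex together, had 34.2, 61.1, 63.9 and 49.6 CPM against 70.5, 78.3, 48.2 and 52.0 CPM, a log2 fold change of -0.25 (SE 0.21). In all 3 genes Nnmt KO library a was the lowest of the 8 libraries, and control libraries a and b were above c and d. Without Nnmt KO library a the log2 fold changes were 0.11 (SE 0.19) for Igfbp2, -0.13 (SE 0.14) for Igfbp4 and -0.10 (SE 0.18) for Igfals. Without control library b that of Igfals was -0.11 (SE 0.21), and without control library a those of Igfals and Igfbp4 were -0.17 (SE 0.23) and -0.16 (SE 0.18).

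**Figure D2:**
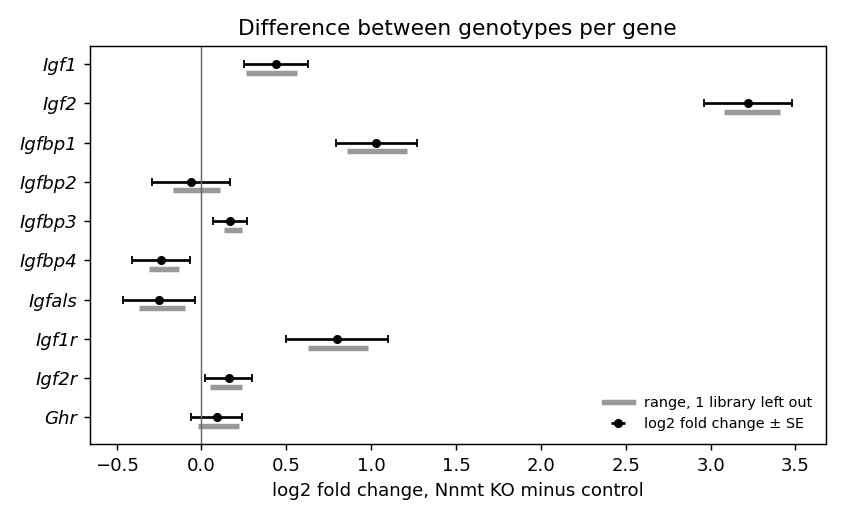
Log2 fold change of each gene, Nnmt KO minus control, as a point with its standard error from the edgeR fit, and as a grey bar the range obtained when each of the 8 libraries was left out in turn. The bars of Igfbp2 (-0.17 to 0.11) and Ghr (-0.02 to 0.22) cross 0, while Igf2 stays between 3.08 and 3.41.

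Counted over the axis, the log2 fold change was positive in 7 genes and negative in 3, with a median of 0.17 against 0.02 over all tested genes. The groups were apart in 1 of the 10 genes, Igf2. Over all tested genes they were apart in 8.16%, with every Nnmt KO library above every control library in 3.34% and below in 4.81%. In the edgeR fit 1 of 10 passed an adjusted p of 0.05 with higher values in Nnmt KO mice (0.183% of all tested genes did) and 4 of 10, Igf1, Igf2, Igfbp1 and Igf1r, passed an unadjusted p of 0.05 in that direction (5.45% of all tested genes). These counts use the contrast by which the genes were picked, so nothing is read from them.

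The spread between mice of 1 genotype played no part in the choice of genes. The biological coefficient of variation is the edgeR estimate of spread between mice, relative to the mean and beyond counting error. The estimate of each gene is drawn toward the trend of genes at its level, so it is not the SD of its own values over their mean. This coefficient was 12.3% for Igfbp3 and 30.4% for Igf1r at the ends, and 25% for Igf2. It was above the edgeR trend at the same level in 5 of the 10 genes. Igfbp1 (23.7%), Igfbp2 (23.5%) and Igfals (21.5%) varied more than the 15.8% to 17.8% of genes at their levels, and Igfbp3 (12.3%) less than the 16.1% at its level.

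Levels between genes were compared per kilobase of exon. In control mice Igfbp2 (511 ± 134 CPM per kb), Igfbp4 (463 ± 65.1) and Igfbp1 (436 ± 114, all SD, n = 4) led the order, and neighbours among them overlapped between libraries. In Nnmt KO mice Igfbp1 came first at 889 ± 251 CPM per kb, before Igfbp2 at 489 ± 126 and Igfbp4 at 392 ± 61.5 (SD, n = 4), again with overlap between neighbours. Below these 3 came a middle tier that no library joined to them. It held Igf1, Igfals, Igf2r, Ghr and Igfbp3, with means between 9.39 and 20.4 CPM per kb in Nnmt KO mice and between 8.36 and 19.7 in control mice. Neighbours within the tier overlapped, except that Igf1 and Igf2r were apart in control mice. Igf2 had rank 9 (1.31 ± 0.329 and 0.14 ± 0.0382 CPM per kb) and Igf1r rank 10 (0.0994 ± 0.0323 and 0.057 ± 0.0115) in both genotypes, each apart from the gene above it.

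Of the summed level of the 4 binding protein genes, Igfbp1 made up 60.7, 37.1, 54.7 and 46.1 percent in libraries a to d of the Nnmt KO mice, and 26, 33.5, 36.2 and 27.2 percent in those of the control mice. The share was apart between the genotypes (means 49.6 ± 10.3 and 30.7 ± 4.91 percent, SD, n = 4), although the level of Igfbp1 was not. The gap was narrow, with 37.1 percent lowest in Nnmt KO and 36.2 percent highest in control mice. In Nnmt KO library a, at 60.7 percent, Igfbp2 and Igfbp4 were the lowest of the 8 libraries. Igfbp1 was picked because it was higher in these data, so nothing is read from this share. The sum itself ran from 1535 to 2153 CPM per kb in Nnmt KO mice and from 1135 to 1739 in control mice. The Igfbp4 share was 22.2 ± 3.47 percent against 33 ± 3.08 percent (SD, n = 4). Shares of a sum move together, and the level of Igfbp4 itself overlapped between the genotypes. The Igfbp3 share was under 1 percent in every library.

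The rest of the pathway was read from 8 lists of genes outside the 10, with edgeR p-values adjusted over all 15291 genes. The lists were chosen with earlier results of these data known, so their counts are descriptions. They held 104 distinct tested genes. Cux2 and Pdk4 rose, Trib3 and Tssc4 fell, and at an unadjusted p of 0.05 the numbers were 20 higher and 16 lower. Over all tested genes 0.32% passed the adjusted and 12.6% the unadjusted threshold, 5.45% higher and 7.13% lower.

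Among FOXO1 targets that insulin holds down, the group to which Igfbp1 belongs, 1 of 8 tested genes rose and none fell, 6 were higher at an unadjusted p of 0.05, and the median log2 fold change was 0.62. Pdk4, the kinase that restrains pyruvate oxidation, rose by 1.33 on the log2 scale (SE 0.24, edgeR adjusted p = 0.0496), from 54.0 to 99.2 CPM in control mice to 132 to 263 CPM in Nnmt KO mice. G6pc, which releases glucose from glucose 6-phosphate, had 395, 526, 461 and 667 CPM against 226, 382, 232 and 213 CPM, a log2 fold change of 0.96 (SE 0.22, edgeR adjusted p = 0.0907). For Irs2, the insulin receptor substrate, it was 1.0 (SE 0.23, edgeR adjusted p = 0.1), and for Ppargc1a, a coactivator of gluconeogenic genes, 0.82 (SE 0.17, edgeR adjusted p = 0.0711). G6pc and Ppargc1a were apart between the genotypes, and Irs2, like Igfbp1, was not. Pck1, chosen after its values were seen as the other gluconeogenic enzyme, gave 0.42 (SE 0.19, edgeR adjusted p = 0.381). Without Nnmt KO library a, 3 of the 8 genes passed the adjusted threshold (Pdk4, G6pc and Ppargc1a), and without any 1 of the other 7 libraries none did. DESeq2's Wald test called 4 of the 8 higher and 0 lower.

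Receptor signalling genes gave 0 of 21 past the adjusted threshold, with 4 higher and 1 lower at an unadjusted p of 0.05 and a median of 0.11. Irs2, already counted among the FOXO1 targets, was among the 4. Foxo1 itself had a log2 fold change of 0.49 (SE 0.15, edgeR adjusted p = 0.194) and the receptor adaptor Grb10 0.72 (SE 0.23, edgeR adjusted p = 0.210), which was 0.44 (SE 0.16, edgeR adjusted p = 0.265) without Nnmt KO library a. The kinase Akt2 was the one lower, at -0.27 (SE 0.11, edgeR adjusted p = 0.367). Of 6 tested binding proteins, proteases and inhibitors outside the 10 (Igfbp5, Igfbp6 and Igfbp7 among them), none passed either threshold. Their median was 0.15 with 4 of 6 positive, and it was -0.12 with 2 of 6 positive without Nnmt KO library a.

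Growth hormone signalling gave 1 of 16 tested genes higher and none lower at the adjusted threshold, 4 higher and 2 lower at the unadjusted, and a median of 0.11. Cux2, a transcription factor with higher liver expression in female than in male rodents, rose from 1.36, 1.91, 0.749 and 0.904 CPM in control mice to 2.92, 6.54, 9.55 and 5.20 CPM in Nnmt KO mice (log2 fold change 2.30, SE 0.38, edgeR adjusted p = 0.0456). The groups were apart, but leaving out any 1 library other than Nnmt KO library a ended the call. The STAT5 feedback genes Cish and Socs2, which follow growth hormone as Igf1 does, had log2 fold changes of 0.62 (SE 0.18) and 0.61 (SE 0.20), with edgeR adjusted p = 0.169 and 0.231. Stat5a stood at -0.50 (SE 0.17, edgeR adjusted p = 0.240) and Stat5b at -0.19 (SE 0.14, edgeR adjusted p = 0.633), or -0.09 without Nnmt KO library d and -0.07 without control library d.

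ATF4, the transcription factor of the integrated stress response, is known to drive Igfbp1 too. The list of 14 tested ATF4 targets, Atf4 itself among them, had 1 gene that fell and none that rose. At an unadjusted p of 0.05, 8 were lower and none higher, and the median log2 fold change was -0.58. By sign 9 were negative and 5 positive. Gdf15 at 0.50 (SE 0.23, edgeR adjusted p = 0.401) and Ddit4 at 0.36 (SE 0.27, edgeR adjusted p = 0.62) were among the positive. Trib3, an inhibitor of AKT, fell by 1.37 on the log2 scale (SE 0.18, edgeR adjusted p = 0.0188). For Atf4 the log2 fold change was -0.56 (SE 0.11, edgeR adjusted p = 0.0711), for Ddit3, the stress factor CHOP, -0.68 (SE 0.16, edgeR adjusted p = 0.0922), and for Asns, asparagine synthetase, -0.81 (SE 0.20, edgeR adjusted p = 0.116). Trib3 lost its call without Nnmt KO library c, control library a or control library c. DESeq2's Wald test called 6 of the 14 lower and 0 higher.

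**Figure D3:**
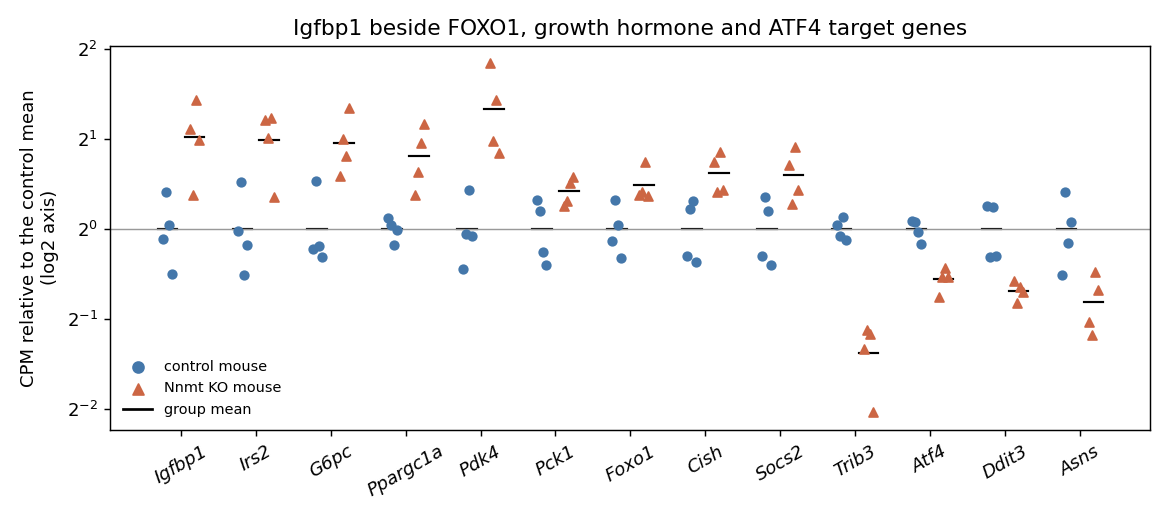
CPM of Igfbp1 and of FOXO1, growth hormone and ATF4 related genes divided by the control mean of each gene (log2 axis), 1 point per mouse, with circles for 4 control and triangles for 4 Nnmt KO mice and a line at each group mean. Igfbp1 averages 2.04 times its control mean, with one Nnmt KO library inside the control range, while the Nnmt KO points of Trib3 lie below all control points.

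The Igf2 neighbourhood on chromosome 7 did not share the sign of Igf2. Within 2 Mb of the Igf2 start 77 other genes were tested, of which 14 had positive and 63 negative log2 fold changes, with a median of -0.35. At an unadjusted p of 0.05, 3 were higher and 34 lower. None rose and 2 fell at the adjusted threshold, Tssc4 by 0.76 on the log2 scale (SE 0.09, edgeR adjusted p = 0.0122) and Athl1 by 0.70 (SE 0.12, edgeR adjusted p = 0.0496). With any 1 library left out 13 to 18 of the 77 were positive, and the 2 calls became 0 or 1 unless that library was Nnmt KO library a. Scaling by library size only gave 0 calls, and DESeq2's Wald test gave 18 lower and none higher. The wider stretch of chromosome 7 from 125 to 150 Mb held 241 other tested genes with a median of -0.30, 7 higher and 101 lower at the unadjusted threshold, whereas the 60 genes of the 50 to 75 Mb stretch that holds Igf1r had a median of 0.08. Of the 20 tested genes listed as the Igf2 neighbourhood, a list not limited to imprinted genes, 1 fell and none rose. At the unadjusted threshold 1 was higher and 5 lower, and the median was -0.35. Cars, Mrpl23 and Dhcr7 were apart between the genotypes with lower values in Nnmt KO mice (log2 fold changes of -0.53, -0.62 and -0.49).

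H19, the non-coding RNA gene 72622 bases from Igf2, was the 1 gene of this list higher at the unadjusted threshold. It had 19.4, 16.3, 13.9 and 19.3 CPM in Nnmt KO mice and 0.832, 5.33, 2.29 and 15.2 CPM in control mice. The log2 fold change was 1.54 (SE 0.63, edgeR adjusted p = 0.339). Nnmt KO mice were alike, and control mice spread widely with control library d inside the Nnmt KO range. In that same library Igf2 was 0.833 CPM, as low as in the other control mice, so H19 was high there and Igf2 was not. Without control library d the H19 log2 fold change was 2.61 (SE 0.49, edgeR adjusted p = 0.086). Without Nnmt KO library d, control library b or control library c it no longer passed the unadjusted threshold and kept its sign.

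**Figure D4:**
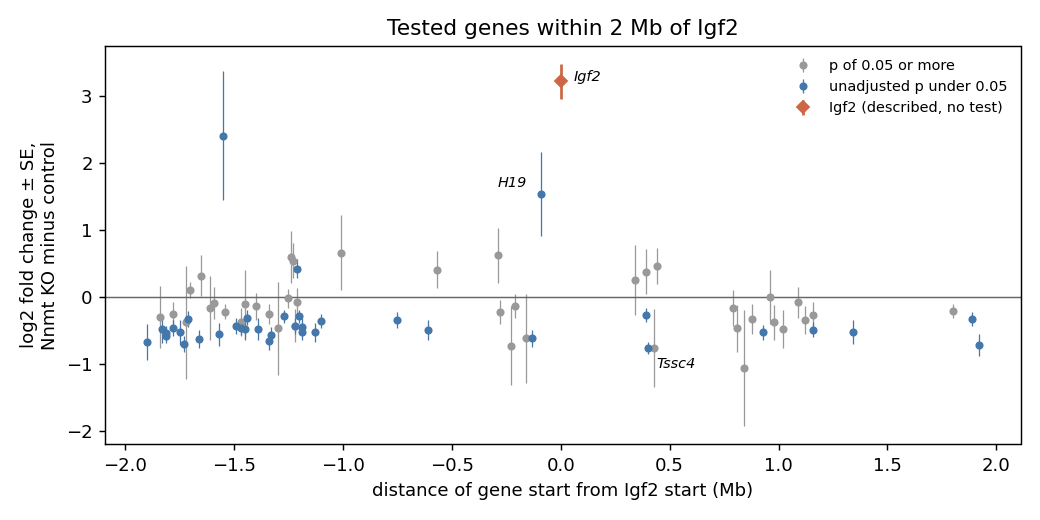
Log2 fold change with its standard error of Igf2 and of the 77 other tested genes whose start lies within 2 Mb of the Igf2 start, against distance in Mb (positive values towards the chromosome end), with genes past an unadjusted p of 0.05 in blue. Igf2 (3.22) and H19 (1.54) lie above 0 while 63 of the 77 genes other than Igf2 lie below it.

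Other imprinted genes gave 0 of 15 past the adjusted threshold, 4 higher and none lower at the unadjusted threshold, and a median of 0.30. Without control library d, 2 passed the adjusted threshold, Meg3 (1.86, edgeR adjusted p = 0.0293) and Rian (1.94, edgeR adjusted p = 0.0293), and without control library c 6 were higher at the unadjusted threshold, with a median of 0.52. DESeq2's Wald test called 3, Dlk1, Meg3 and Mirg. Dlk1, a fetal membrane protein, had 1.77, 0.966, 0.884 and 1.27 CPM in Nnmt KO mice against 0.121, 0.211, 0 and 0.178 CPM in control mice (log2 fold change 3.26, SE 0.68, edgeR adjusted p = 0.0725). In counts Dlk1 had 162, 78, 74 and 91 against 10, 16, 0 and 15, so it passed the filter on low counts through the Nnmt KO libraries. Its imprinted partner Meg3, a non-coding RNA, gave 1.42 (SE 0.33, edgeR adjusted p = 0.1), and Mirg, a microRNA host transcript of the same cluster, 1.59 (SE 0.41, edgeR adjusted p = 0.126). The groups were apart for Dlk1 and Mirg but not for Meg3, where control library d was again highest among control mice at 6.66 CPM.

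Of the fetal liver genes 7 of 10 were tested, all 7 had positive log2 fold changes, and the median was 0.80. At the unadjusted threshold 4 were higher, and none was at the adjusted. Dlk1 and H19, already counted in the lists above, were among the 4. Dlk1 passed the filter on low counts only through the Nnmt KO libraries, so its positive sign adds nothing to the count of 7. Of the genes not tested, Igf2bp1 had at most 6 and Igf2bp3 at most 21 counts in a library, and 1 had 0 in every library. Gpc3, a fetal cell-surface proteoglycan, had 8.57, 4.21, 8.34 and 6.70 CPM against 0.555, 3.24, 1.64 and 1.88 CPM (log2 fold change 1.93, SE 0.42, edgeR adjusted p = 0.0877). Epcam, also a bile duct marker, gave 0.80 (SE 0.31, edgeR adjusted p = 0.306). Afp, the classical fetal liver protein and named after its value was seen, gave 0.31 (SE 0.25, edgeR adjusted p = 0.649), and 0.02 (SE 0.19) without Nnmt KO library a. Bile duct markers were also higher in 7 of 8 tested genes, with 2 higher and 1 lower at the unadjusted threshold, and their part in these values was not tested. With 1 library left out, 2 to 5 fetal liver genes were higher at the unadjusted threshold, with 2 without Nnmt KO library d or control library b and 3 without Nnmt KO library a, and the median ran from 0.55 without Nnmt KO library a to 1.27 without control library c. Without Nnmt KO library a the Igf2 log2 fold change was 3.14 (SE 0.27).

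**Figure D5:**
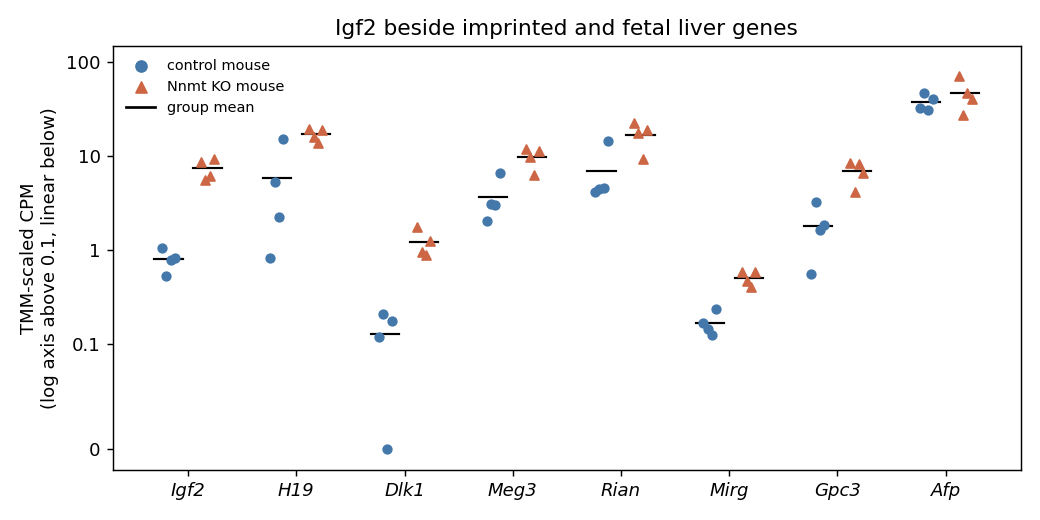
TMM-scaled CPM of Igf2, H19, other imprinted genes and fetal liver genes (log axis above 0.1, linear below), 1 point per mouse, with circles for 4 control and triangles for 4 Nnmt KO mice and a line at each group mean. Igf2, Dlk1, Mirg and Gpc3 are apart between the genotypes, while 1 control mouse reaches 15.2 CPM for H19 and Afp overlaps.

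The genes most like Igf2 over the 8 libraries, by Pearson's r of log2 CPM among 15136 candidates, were Cttnbp2 (r = 0.981), 2010300C02Rik (r = 0.981) and Phf21b (r = 0.981), all under 1.5 CPM on average in both genotypes. Those most like Igfbp1 were Rps18-ps3 (r = 0.978), a ribosomal pseudogene that can share reads with its parent, Sik1 (r = 0.976) and Dusp3 (r = 0.974). Sik1, a kinase gene induced by cyclic AMP, had 70.2 ± 22.8 CPM in Nnmt KO and 30.1 ± 11.7 CPM in control mice (SD, n = 4). The libraries share a genotype difference, so these values are descriptions.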

How the data were processed

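Liver RNA of 8 mice was sequenced as paired-end reads on an Illumina HiSeq instrument. The study's methods name the KAPA RNA HyperPrep kit and the labels NEBNext Ultra, so the kit is not certain. Reads were aligned and quantified with HISAT2, and the submitters' processing notes also name StringTie and mm10; the annotation and the use of strand are not given in the sources used here. What the authors deposited are raw counts for each gene, in whole numbers that were not normalized.

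From these counts, genes were filtered with filterByExpr (minimum count 10), scaled by TMM and tested with edgeR 4.0.16 (quasi-likelihood test, R 4.3.3), Nnmt KO against control, with Benjamini-Hochberg adjustment over 15291 genes and a threshold of 0.05. Of these, 15146 (99.1%) matched GENCODE M21, which gave positions and exon lengths. CPM are TMM-scaled, except where 3 counts are expressed as CPM of the library total, and log2 CPM used a prior count of 2. In the edgeR fits a standard error is the absolute log2 fold change divided by the square root of the quasi-likelihood F statistic. It is therefore not independent of that test. The script was tested on simulated data. Alternatives were DESeq2 1.42.0, other scalings, no filter, and each library left out. Libraries of 1 genotype differed beyond counting error (chi-square per degree of freedom 39.9 to 248), so none was counted as a repeat. The 10 genes and the lists were chosen with earlier results of these data known. Named from each list were genes past the adjusted threshold, up to 3 of smallest unadjusted p per direction, and defining genes, and for Igf2 and Igfbp1 the 3 most correlated genes. Pck1, Rian, Afp and Athl1 were named after their values were seen. Of the listed symbols 2, Kcnq1ot1 and Adgre1, were not matched.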

Additional observations from a re-analysis of the deposited data

Results flagged for a closer look

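In groups of 4 libraries, a value was looked at again where its gap to the nearest other value exceeded Dixon's 95% critical share of the range of the group. Of 96 groups of values tested 9 met it, and chance alone gives 4.8. Nnmt KO library a gave 4 of them. Its TMM factor was 1.21, where Nnmt KO libraries b to d had 0.952 to 0.977, Igfbp2 was 557 CPM against 995 to 1061, Igfbp4 was 1328 CPM against 1824 to 1895, and Grb10 was 10.8 CPM against 5.53 to 5.95. Of the 10 IGF axis genes, 6 were lowest and 2 highest in library a among the Nnmt KO libraries.

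In Nnmt KO library c, Foxo1 was 47.9 CPM against 36.8 to 37.8 and Cars 28.4 CPM against 23.1 to 23.6. Among control mice, G6pc was 382 CPM in library b against 213 to 232, Dhcr7 was 84.9 CPM in library c against 104 to 107, and the imprinted non-coding RNA Rian was 14.5 CPM in library d against 4.21 to 4.57.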

How the results depend on the processing

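Igf2 (3.21 to 3.28 under other scalings and tools, 3.08 to 3.41 with 1 library left out) and Igfbp1 (1.02 to 1.10 and 0.86 to 1.21) kept their sign and size. The log2 fold changes of the other 8 members moved by less than their standard error in the main fit in all 13 alternatives. For Igf1 the move, from 0.44 to 0.26 without Nnmt KO library d, was close to that standard error (0.19). The sign of Igfbp2 and Ghr changed when 1 library was left out. The number of genes past the adjusted threshold, 49 (57.1% of them higher), was 30 with DESeq2 size factors, 22 with library size only (86.4% higher), 8 with no filter and 508 with DESeq2's Wald test (42.5% higher). With 1 library left out it ran from 6 to 149, the highest without Nnmt KO library a and the lowest without Nnmt KO library c or control library a. The count at unadjusted p, 1925, ran from 1259 to 2194. Scaling without chromosome 7, chosen after seeing the data, gave 42. The 4 genes called in the pathway lists became 2 with no filter and 20 with DESeq2, which called all 4, and ran from 0 to 9 with 1 library left out. Pdk4 lost its call in 11 of 13 alternatives, Cux2 in 8, Tssc4 in 5 and Trib3 in 3. Nnmt passed the threshold with DESeq2 (-1.28, adjusted p = 0.00467), and ran from -1.52 to -0.94 with 1 library left out. The cause of these shifts was not tested. Lengths of the longest transcript moved the rank of 3 members in Nnmt KO and 2 in control mice, and leaving out 1 library that of 0 to 2 in control and 0 in Nnmt KO mice. Dlk1 had 0 counts in 1 control library. No paired analysis was possible because the columns of the count table carry no mouse number, so the replicate block was not run.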
